A study of Mus musculus with 12 samples.

Results

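The cytosolic ribosomal protein genes encode the proteins that, together with ribosomal RNA, build the large and the small subunit of the ribosomes of the cytosol. They were taken as all mouse symbols made of Rpl or Rps, digits and at most 1 further letter, together with Rpsa, Rplp0, Rplp1 and Rplp2, and without the Rps6k kinase genes. Of 84 such symbols in the gene table, 80 had a probe on the array, and all 80 passed the filter on dim probes, so they make up 80 of the 25321 genes tested. Rpl32l, Rpl32p, Rpl6l and Rps23 had no named probe. The 80 members comprised 49 genes named for the large subunit and 31 for the small subunit. Among the latter, Rps4l is listed as a transcribed pseudogene.

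Ribosomal proteins are made in matched amounts, because each ribosome holds a single copy of nearly every one of them. Their transcripts start with a run of pyrimidines, the TOP tract, through which mTOR signalling sets how much of them is translated. A growing heart needs more ribosomes, and striated muscle is known for a ribosomal protein of its own: Rpl3l, a paralog that takes the place of Rpl3 in the large subunit of muscle cells. Both lie in the core of the subunit, where a loop of the protein reaches towards the site of peptide bond formation.

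The samples were 12 single-colour expression arrays of left ventricle RNA from C57/Bl6 mice, 3 in each of 4 groups. Wild-type mice and mice labelled as CnAb1 transgenic overexpressing had sham surgery or trans aortic banding (TAC), which narrows the aorta and makes the ventricle pump against a higher pressure. CnAb1 is a splicing variant of a catalytic subunit of calcineurin, a phosphatase that drives cardiac growth. All hearts were taken 21 days after surgery, per the protocol and source names, although the sham hearts also carry a time tag of 0. The promoter that drives the transgene is not given in the labels. Nor do they say whether the arrays of a group come from different animals, and p-values therefore reflect array-to-array spread, which may be technical.

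Levels are log2 processed signals minus the 75th percentile of each array, and a difference is between group means, given with its standard error. A gene passed when the p of limma's moderated test, adjusted over all 25321 genes by the Benjamini-Hochberg method, was under 0.05. The number of arrays limits the precision. From 60.3% to 78.2% of probes were well above background on 11 arrays, and 37.2% were on transgenic sham array 2, where the net signal of negative control spots was 48.6, beside 15.4 to 21.0 on the others. The single named probe of Ppp3cb, the gene CnAb1 is spliced from, lay between 1.20 and 1.39 in transgenic sham arrays, below the 1.55 to 1.63 of wild-type sham arrays. After TAC it lay between 1.38 and 1.47 in transgenic arrays, above the 1.21 to 1.33 of wild-type arrays, and neither difference between the genotypes passed (limma adjusted p = 0.184 and 0.395). Where that probe lies relative to the transgene was not known, so it does not check the genotype, and transgenic means labelled as such throughout. Cardiomyocyte markers were well above background on all 12 arrays for 12 of 12 genes.

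Promoter sequence of 59 of the 80 members was held in the RefSeq table (GRCm38.p6). The first windows are shown because they carry a run of pyrimidines at the transcript's start in 3 genes that fell after TAC in wild-type hearts. They run from 15 bases before the listed start to 15 from it, 5′ to 3′, and the capitals mark the run of C and T from the start itself.
Rplp2 (chr7:141447636-141447665, plus strand): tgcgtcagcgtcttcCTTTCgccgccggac
Rps10 (chr17:27635230-27635259, minus strand): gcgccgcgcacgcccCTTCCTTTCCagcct
Rps27 (chr3:90213634-90213663, minus strand): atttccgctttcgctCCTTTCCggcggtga
A start of C followed by 4 bases that are each C or T was present in 13 of 59 members (22.0%) and in 3.01% of the 27025 genes of the table. Among the members that fell after TAC in wild-type hearts, 10 of 15 had an entry and 3 of those 10 held such a start. The search counted only a run that begins exactly at the listed start. A tract whose start is listed some bases away was missed, so the shares do not count the genes with a TOP tract.

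The upstream sequences of Rps2 and Rpl3l, 250 bases each, are shown because these were the small and the large subunit gene with the largest falls. They also lie close together on chromosome 17, and 4 listed genes have start coordinates between theirs: Snhg9, Snora78, Snora64 and Ndufb10. Whether any of these overlaps Rps2 or another gene was not looked at. In Rps2 the capitals mark CCGGAAG, a motif of ETS factors, read here on the opposite strand. In Rpl3l they mark AGATAA, bound by factors of the GATA family, and GGAAAA, the core bound by NFAT factors, which calcineurin activates, both on the opposite strand, and then CAGCTG, an E-box.
Rps2 (chr17:24719813-24720062, plus strand): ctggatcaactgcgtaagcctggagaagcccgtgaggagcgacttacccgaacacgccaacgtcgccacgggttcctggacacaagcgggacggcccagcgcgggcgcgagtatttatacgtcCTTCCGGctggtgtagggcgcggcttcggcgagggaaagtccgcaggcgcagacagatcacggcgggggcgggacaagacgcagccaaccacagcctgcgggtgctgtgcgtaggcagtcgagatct
Rpl3l (chr17:24727576-24727825, plus strand): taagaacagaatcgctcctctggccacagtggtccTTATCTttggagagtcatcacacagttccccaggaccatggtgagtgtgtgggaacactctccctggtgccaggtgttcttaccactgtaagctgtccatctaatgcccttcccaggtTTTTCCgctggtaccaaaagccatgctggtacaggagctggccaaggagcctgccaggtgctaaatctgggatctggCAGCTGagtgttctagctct
On both strands of the 250 bases upstream of the listed starts, CCGGAAG was found in 18 of 59 members (30.5%) against 7.83% of all genes. GGAAAA was found in 22.0% of members against 22.9%, AGATAA in 6.78% against 11.4% and CAGCTG in 6.78% against 14.7%. CATTCC, the motif of TEAD factors, was in 8.48% of members against 14.4%, and AAGATGGC, the motif of YY1, in 5.09% against 1.83%. A match is a description of the letters and no evidence of binding.

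After TAC in wild-type hearts the paralogs Rpl3 and Rpl3l moved in opposite directions, and these were 2 of the 3 members whose calls held under quantile normalization. Rpl3 measured 4.58, 4.69 and 4.41 in the 3 wild-type sham arrays and 5.43, 5.18 and 5.49 after TAC. Every TAC array was above every sham array, and Rpl3 rose by 0.81 ± 0.21 (limma adjusted p = 0.0215). Rpl3l measured 4.98, 4.96 and 5.15 in sham arrays and 3.54, 3.81 and 2.67 after TAC. The sham arrays lay close together, the TAC arrays were all lower and spread more widely, and Rpl3l fell by 1.69 ± 0.41 on the log2 scale (limma adjusted p = 0.0179). Each gene had 1 probe.

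**Figure D1:**
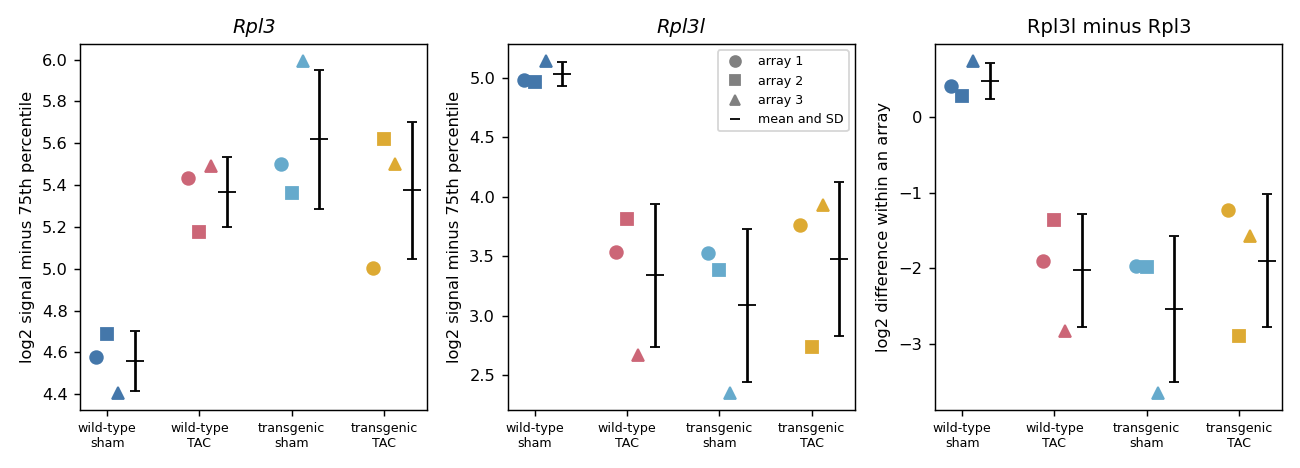
Level of Rpl3 (left) and Rpl3l (middle), as log2 signal minus the 75th percentile of the array, and the log2 difference of the 2 probes within an array (right), for 3 arrays in each of 4 groups. Points are arrays, the bars beside them give mean and SD, and the wild-type sham arrays stand below all 9 others for Rpl3 and above all 9 others for Rpl3l.

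In transgenic hearts Rpl3 was higher already after sham surgery. Rpl3 measured 5.50, 5.36 and 5.9951 in transgenic sham arrays, all above the wild-type sham arrays, and was higher by 1.06 ± 0.21 (limma adjusted p = 0.0414). Rpl3l measured 3.53, 3.38 and 2.35 in the same arrays, all below the wild-type sham arrays, a difference of -1.94 ± 0.41 that missed the threshold (limma adjusted p = 0.0542). After TAC the transgenic arrays read 5.0015, 5.62 and 5.50 for Rpl3 and 3.77, 2.73 and 3.93 for Rpl3l. They overlapped both the transgenic sham and the wild-type TAC arrays, with TAC differences in transgenic hearts of -0.24 ± 0.21 for Rpl3 and 0.39 ± 0.41 for Rpl3l (limma adjusted p = 0.829 and 0.859). On leaving out each array in turn these ran from -0.37 to -0.06 and from 0.02 to 0.76, both nearest 0 without transgenic sham array 3. Between the genotypes after TAC, Rpl3 differed by 0.01 ± 0.21 and Rpl3l by 0.14 ± 0.41, and neither passed. The TAC response of transgenic hearts minus that of wild-type hearts, the interaction, was -1.05 ± 0.29 for Rpl3 and 2.08 ± 0.58 for Rpl3l, and both missed the threshold (limma adjusted p = 0.0579 and 0.0598).

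Taking the difference of the 2 probes within each array removes any scaling between arrays. Its level has no meaning of its own, since probes differ in brightness, but its changes do. In wild-type hearts it was 0.47 ± 0.24 (SD, n = 3) after sham surgery and -2.03 ± 0.74 after TAC. In transgenic hearts it was -2.53 ± 0.97 and -1.90 ± 0.87. TAC differed from sham by -2.50 in wild-type hearts, and transgenic from wild-type sham hearts by -3.00, with no overlap of arrays (two-sided exact permutation p = 0.1 for each, the smallest that 3 arrays against 3 allow). The difference was 0.63 for TAC in transgenic hearts and 0.13 for the transgene after TAC (exact permutation p = 0.5 and 0.8), and the 0.63 ran from 0.08 without transgenic sham array 3 to 1.13 without transgenic TAC array 2. In 4 of 4 groups the array with the highest Rpl3 was the array with the lowest Rpl3l, and over the 12 arrays their deviations from the group means had r = -0.73, a description over values that share arrays and scaling.

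Several limits apply to these 2 genes. On the slide that held 2 wild-type sham arrays and 1 array each of wild-type TAC and transgenic sham, Rpl3 was higher by 0.54 after TAC and by 0.73 in transgenic sham, and Rpl3l differed by -1.16 and -1.59. With slide as a fixed block, which leaves few degrees of freedom, the wild-type TAC differences were 0.58 for Rpl3 and -1.40 for Rpl3l, and neither passed (limma adjusted p = 0.162 and 0.128). The Rpl3 call after TAC was lost with limma adjusted p up to 0.0804 on leaving out wild-type sham array 1 or 3 or wild-type TAC array 1 or 3. The Rpl3l call was lost with adjusted p up to 0.0712 without wild-type sham array 1 or 3 or wild-type TAC array 3. Normexp background correction also ended the Rpl3 call after TAC (0.62, limma adjusted p = 0.180). The Rpl3 call in transgenic sham hearts was lost on leaving out 9 of the 12 arrays in turn, with the difference between 0.87 and 1.19, and stood without transgenic sham array 1 and transgenic TAC arrays 1 and 2.

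Summed levels of cardiomyocyte and fibroblast markers also set the wild-type sham arrays apart from the other groups. The summed linear level of the 12 cardiomyocyte markers, all measured, ran from 3642 to 3792 in wild-type hearts after sham surgery and from 2170 to 2553 after TAC, and in transgenic hearts from 2668 to 2937 and from 2429 to 2946. After TAC in wild-type hearts 8 of these 12 fell and 0 rose, with a median of -0.73 (2 fell and 1 rose under quantile normalization, with a median of -0.11). The 12 fibroblast markers summed to 153 to 240, 448 to 606, 265 to 279 and 255 to 299 in the same order of groups, and 9 of 12 rose after TAC in wild-type hearts with a median of 2.01. For the transgene in sham hearts 1 of 12 cardiomyocyte markers was lower (median -0.37, and -0.09 with 0 calls under quantile normalization). Of the 12 fibroblast markers 0 passed there (median 0.72). TAC in transgenic hearts gave 0 calls in either list, beside 0% of all genes. Over all genes, 21.5% passed after TAC in wild-type hearts and 1.40% for the transgene in sham hearts. No marker of either list was below background on any array. Their part in the Rpl3 and Rpl3l results was not tested, and in bulk tissue fewer cells of a type and less RNA per cell cannot be told apart.

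Across all 80 members, 16 passed after TAC in wild-type hearts, 1 higher and 15 lower. Under quantile normalization 4 passed, 2 higher (Rpl3 and Rps12) and 2 lower (Rpl3l and Rps2). The 16 are 20.0% of the members, beside 21.5% of all genes tested (8.86% higher and 12.6% lower), so being called was about as frequent among them as among genes at large. The median member differed by -0.27, with 75 below 0 and 5 above, beside a median of -0.12 over all genes, and under quantile normalization the median turned to 0.08 with 55 above 0. The arrays of the 2 groups did not overlap for 59 of 80 members (73.8%), beside 46.7% of all genes. Of the 49 large subunit genes 1 rose and 8 fell (median -0.27, and 0.10 under quantile normalization), and of the 31 small subunit genes 7 fell (median -0.26, and 0.04 under quantile normalization).

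**Figure D2:**
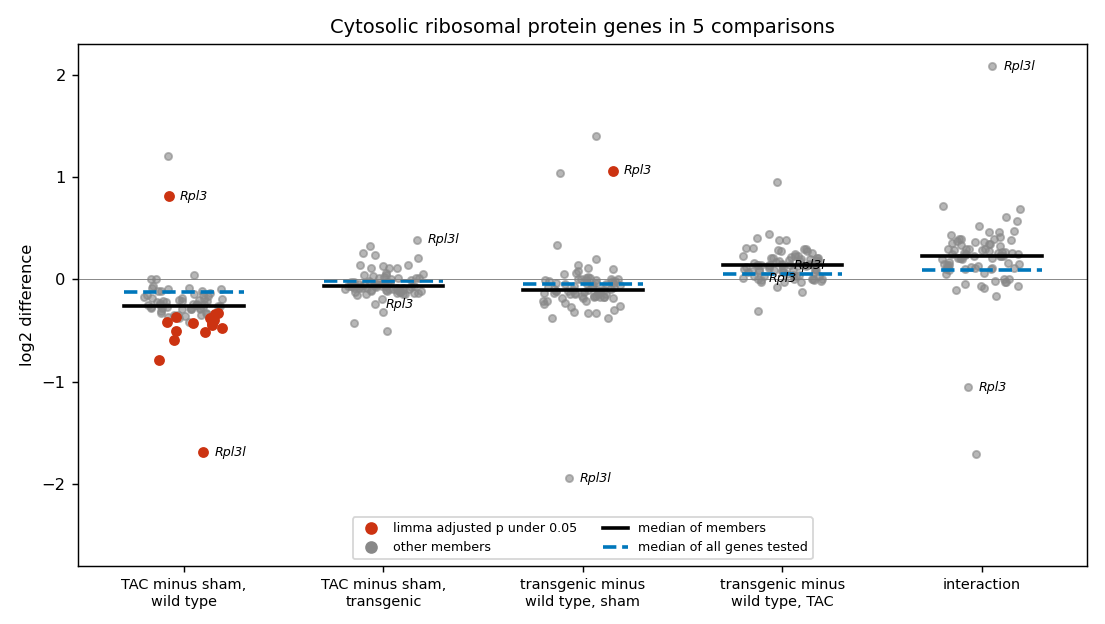
Log2 difference of each of the 80 ribosomal protein genes in the 5 comparisons (one column each), with points past limma's adjusted p of 0.05 in red and the medians of the members and of all genes tested as lines. The wild-type TAC column holds 16 red points, 15 of them below 0, the transgenic TAC column holds 0, and Rpl3 and Rpl3l are the labelled points.

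Among small subunit proteins, Rps2 and Rps3 line the channel through which mRNA enters. Rps2 measured 7.17, 7.15 and 7.20 in wild-type sham and 6.51, 6.58 and 6.07 in wild-type TAC arrays. The groups were apart, TAC array 3 was lowest, and Rps2 fell by 0.79 ± 0.14 on the log2 scale (limma adjusted p = 0.00469). Its call held on leaving out each of the 12 arrays in turn and under 14 of the other 15 settings, the exception being slide as a fixed block. Its other probe gave -0.73 (adjusted p = 0.00668). On the slide shared by both groups it differed by -0.58. Rps3 measured 5.02, 5.16 and 5.10 in sham and 4.76, 4.53 and 4.57 in TAC arrays, apart again, and fell by 0.47 ± 0.13 (limma adjusted p = 0.0289). The Rps3 call was lost under quantile normalization.

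Further small subunit genes past the threshold included Rps27 (-0.45 ± 0.12), Rps29 (-0.43 ± 0.11), Rps14 (-0.42 ± 0.12) and Rps10 (-0.37 ± 0.12). Rps14 is the gene whose loss accounts for the anaemia of 5q- syndrome, and Rps10 and Rps29 are among those mutated in Diamond-Blackfan anaemia. Rps27 measured 6.89, 6.99 and 6.77 in sham and 6.47, 6.44 and 6.40 in TAC arrays, with 4 of its 4 probes past the threshold. Under quantile normalization the differences of Rps10, Rps14 and Rps29 were above 0, and neither these nor Rps27 passed.

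Of the large subunit, Rpl36 fell by 0.59 ± 0.13 (limma adjusted p = 0.0113), from 7.44, 7.44 and 7.32 in sham to 6.90, 6.88 and 6.64 in TAC arrays. All 3 of its probes passed, and its call held on leaving out each array in turn. The Rpl36 call was lost under quantile normalization, median scaling, normexp and slide as a fixed block. Rpl9 (-0.52 ± 0.15), Rpl7a (-0.38 ± 0.10), Rpl30 and Rpl37a also passed. Rpl30 (-0.34) and Rpl37a (-0.33) had among the smallest spread within groups of all members, with SDs of 0.09 and 0.08 beside a median of 0.14 over members and 0.28 over all genes. Under quantile normalization the Rpl37a difference was above 0, and neither it nor Rpl9, Rpl7a or Rpl30 passed. The third probe of Rpl30 gave -0.05 and did not pass. Over the called members with further probes, 18 of 18 other probes had the same sign and 12 passed.

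The P stalk is the arm of the large subunit that recruits elongation factors. Rplp0, its base, measured 7.86, 8.03 and 7.86 in sham and 7.52, 7.60 and 7.42 in TAC arrays, and fell by 0.40 ± 0.13 (limma adjusted p = 0.0482). Rplp2 measured 7.53, 7.57 and 7.44 in sham and 7.11, 7.17 and 6.97 in TAC arrays, and fell by 0.43 ± 0.10 (limma adjusted p = 0.0143). Under quantile normalization both differences were above 0 and did not pass. Rplp1, the partner of Rplp2, differed by -0.18 ± 0.20 and did not pass.

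The other members with well known roles did not pass after TAC in wild-type hearts. Rps6, the substrate of the S6 kinases, differed by -0.35 ± 0.13 and Rpsa, also known as the laminin receptor, by -0.38 ± 0.15. For Rpsa this is the brightest probe. Less bright Rpsa probes gave -0.52 and -0.51 and passed (limma adjusted p = 0.0149 and 0.0399 over all probes tested). The dimmest Rpsa probe gave 0.18 and did not pass. The Rpsa probe at -0.52 also passed for the transgene after TAC (0.51, limma adjusted p = 0.0490). Rpl5 and Rpl11, which with the 5S RNA restrain Mdm2, differed by -0.14 ± 0.13 and -0.29 ± 0.14. Rpl13a, a silencer of translation when released from the ribosome, differed by -0.29 ± 0.14, and Rps19, the gene most often mutated in Diamond-Blackfan anaemia, by -0.25 ± 0.14. Rpl4, which lines the exit tunnel, gave -0.11 ± 0.13, and Rps27a, made as a fusion with ubiquitin, -0.11 ± 0.19.

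Among the members, the paralogs other than Rpl3l and their parents other than Rpl3 had no call in any of the 5 comparisons, apart from Rps27 after TAC in wild-type hearts. Rps27l, the p53-responsive relative of Rps27, differed by -0.09 ± 0.14 there. Rps4l, a transcribed pseudogene related to the X-linked Rps4x, measured 1.88, 2.14 and 0.87 in wild-type sham and 0.73, 1.74 and 1.42 in wild-type TAC arrays. In transgenic hearts the values were 2.43, 2.38 and 3.22 after sham surgery and 1.88, 2.59 and 2.28 after TAC. Within each surgery the transgenic arrays were all above the wild-type ones, by 1.04 ± 0.39 in sham and 0.95 ± 0.39 after TAC on average, and neither passed (limma adjusted p = 0.215 and 0.180). Rps4x differed by 0.01 ± 0.11 and 0.18 ± 0.11. Rpl10l and Rpl39l, relatives of Rpl10 and Rpl39 known from testis, were well above background on 8 and 9 of the 12 arrays and had the largest spreads within groups, with SDs of 1.07 and 1.30. Rpl10 (-0.28 ± 0.11), Rpl39 (0.04 ± 0.16), Rpl22 (-0.15 ± 0.12), Rpl36a (0.00 ± 0.14) and Rpl29 (-0.10 ± 0.13) did not pass after TAC in wild-type hearts.

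**Figure D3:**
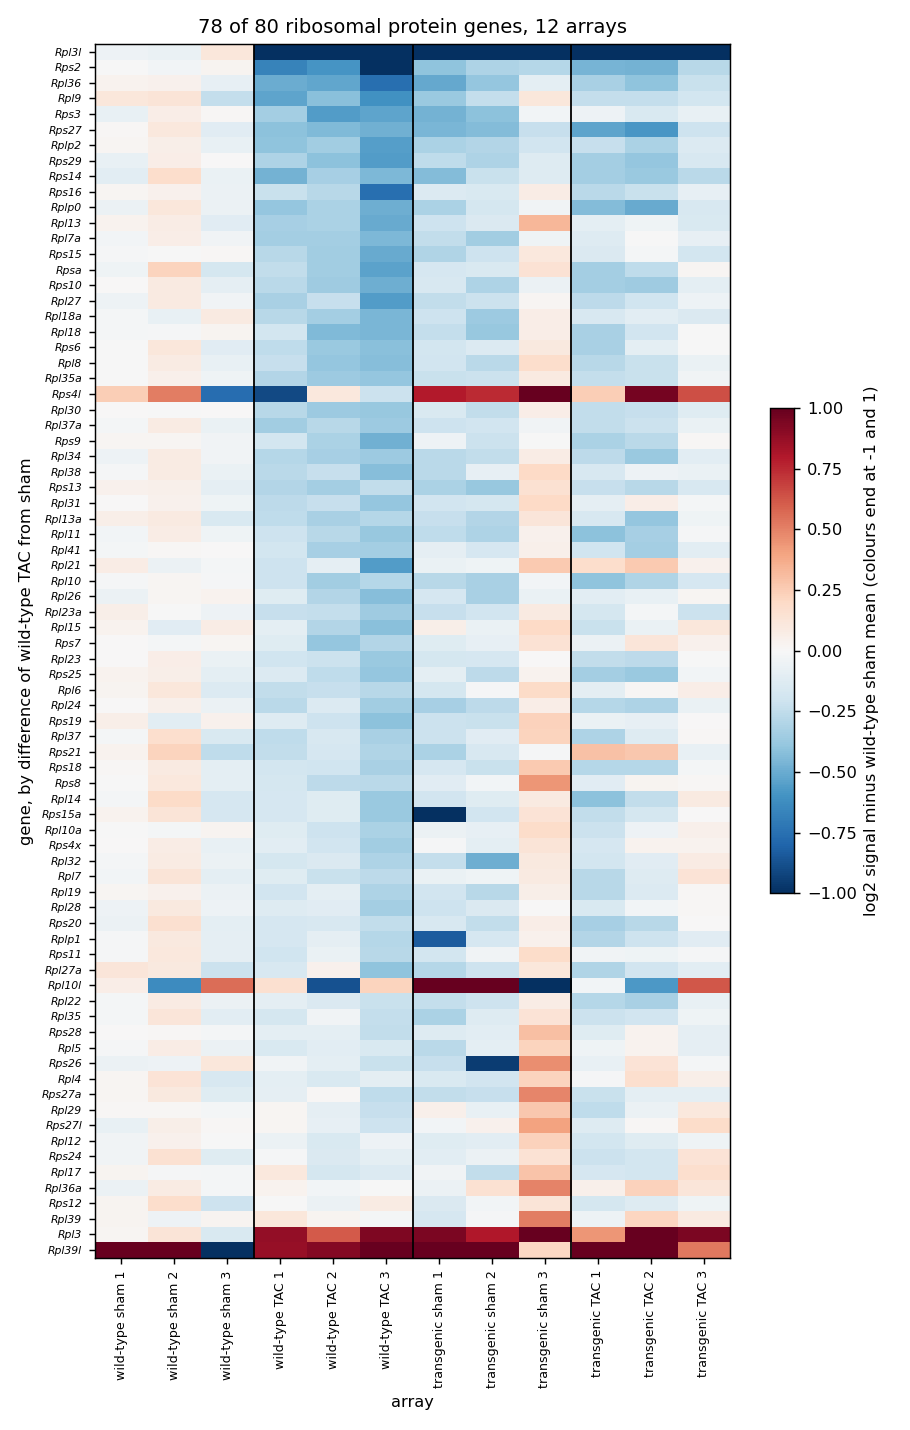
Level of 78 of the 80 ribosomal protein genes (rows, ordered by the difference of wild-type TAC from sham) on each of the 12 arrays (columns), as log2 signal minus the mean of the wild-type sham arrays; colours end at -1 and 1. Most rows are below 0 on the wild-type TAC arrays on this 75th percentile scaling, though 55 of 80 differences were above 0 under quantile normalization. Rpl3l stands at the top, and Rpl3 near the bottom above the dim Rpl39l. Transgenic sham array 3 is above 0 for 63 of 80 members.

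The scaling sets how the family as a whole reads. The median member stood at -0.20, -0.23 and -0.35 on the wild-type TAC arrays relative to the mean of wild-type sham, whose own arrays ran from -0.06 to 0.07. Before scaling it was higher by 0.50 ± 0.04 (SD, n = 3) on those TAC arrays, while the 75th percentile itself was 9.88 to 9.95 in wild-type TAC and 8.98 to 9.24 in wild-type sham arrays. Under quantile normalization the median member was at 0.09 ± 0.01 in wild-type TAC arrays. Transgenic sham array 3, alone on its slide, stood apart at 0.11 against -0.20 and -0.19 for the other transgenic sham arrays.

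**Figure D4:**
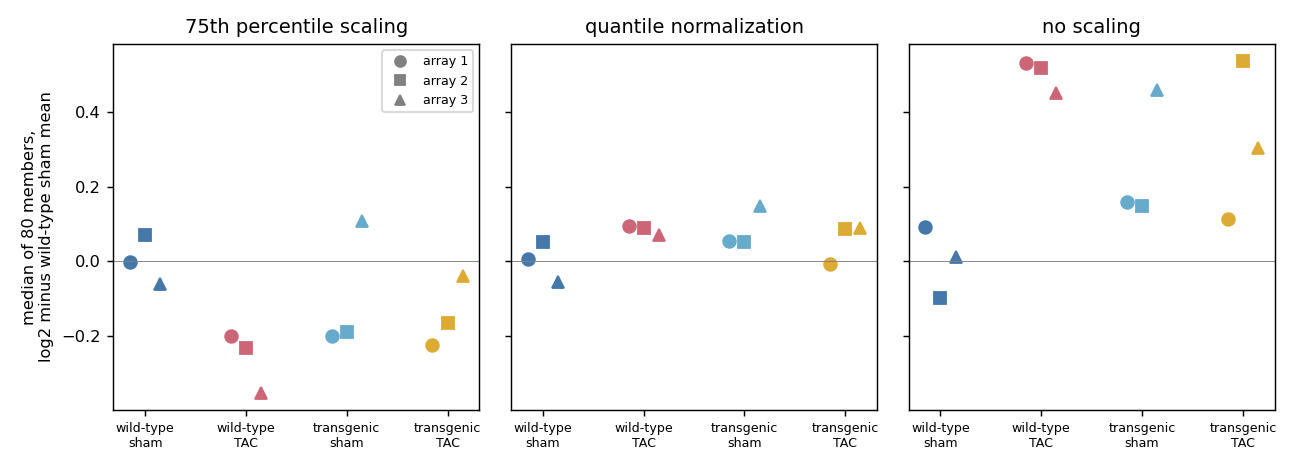
Median over the 80 ribosomal protein genes of the log2 level minus the wild-type sham mean, for each of the 12 arrays, with 75th percentile scaling, quantile normalization and no scaling (left to right). The wild-type TAC arrays lie at -0.35 to -0.20 on the left, at 0.07 to 0.10 in the middle and at 0.45 to 0.53 on the right.

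In transgenic hearts 0 of 80 members passed after TAC, beside 0% of all genes by limma, and 0 members had an unadjusted p under 0.05 beside 6.24% of all genes. The arrays overlapped for all 80 members, beside 8.57% of genes without overlap. The median was -0.06 beside -0.01 over all genes. On leaving out each array in turn it ran from -0.12 without transgenic TAC array 3 to 0.05 without transgenic sham array 3. The members with the smallest p above 0 were Rps21 (0.33 ± 0.15), Rps3 (0.21 ± 0.13) and Rpl7a (0.14 ± 0.10), and those below 0 included Rplp0 (-0.19 ± 0.13) and Rpl41 (-0.14 ± 0.10). The 15 genes that fell in wild-type hearts had a median of -0.06 here beside -0.43 there. The 2 TAC comparisons share no arrays, but the genes were chosen on the wild-type one.

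Between the genotypes, 1 of 80 members passed in sham hearts, Rpl3, beside 1.40% of all genes, and 0 passed after TAC beside 4.15%. Without transgenic sham array 3 the Rpl3 difference was 0.87 with limma adjusted p = 0.0711. The median in sham hearts was -0.10 beside -0.04 over all genes, 0.09 under quantile normalization and 0.02 under median scaling. On leaving out each array in turn this median ran from -0.20 without transgenic sham array 3 to -0.04 without transgenic sham array 2. The sham arrays of the genotypes did not overlap for 12 of 80 members, beside 22.3% of genes. After TAC the median was 0.13 beside 0.05, with 70 members above 0, and -0.03 under quantile normalization, and the arrays did not overlap for 28 of 80 members beside 33.1% of genes. Rpl21 (0.44 ± 0.14), Rps3 (0.38 ± 0.13) and Rpl7a (0.31 ± 0.10) had the smallest p there and did not pass (limma adjusted p = 0.107, 0.120 and 0.117), and below 0 were Rps12 (-0.12 ± 0.12), Rpl22 (-0.07 ± 0.12) and Rpl39l (-0.31 ± 0.97). In the interaction 0 members passed, beside 7.29% of all genes. Its median was 0.23 beside 0.09, and -0.12 under quantile normalization. The smallest p belonged to Rps3 (0.68 ± 0.18, limma adjusted p = 0.0529) and Rps2 (0.72 ± 0.19, adjusted p = 0.0537) and, below 0 beside Rpl3, to Rpl39l (-1.71 ± 1.37) and Rps12 (-0.10 ± 0.17).

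Ribosomal protein genes that the symbol rule leaves out were counted separately, in a list that also holds related genes such as Rsl24d1. Of 9 tested, 4 fell after TAC in wild-type hearts (44.4%, beside 21.5% of all genes called) and 0 rose, with a median of -0.29 (1 fell and 0 rose under quantile normalization, with a median of -0.08). They included Rsl24d1 (-0.45 ± 0.10), a maturation factor, Rpl22l1 (-0.43 ± 0.12), the paralog of Rpl22, and Rps3a1 (-0.39 ± 0.11). Fau (-0.24 ± 0.12), Rpl36al (-0.28 ± 0.15) and Rpl7l1 (-0.29 ± 0.13) did not pass.

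Other genes of the translation machinery were counted in the same comparison, where 21.5% of all genes passed. The share that passed was 41.2% of elongation and other TOP-type genes, 25% of initiation factors and 7.21% of assembly and nucleolar genes. Of 17 elongation factors and other TOP-type genes 3 rose and 4 fell (median -0.19, between -0.39 and 0.01 under the other scalings and background correction, and 3 rose and 2 fell under quantile normalization), with Eif5a2 at -1.17 ± 0.19, Eif5a at -0.51 ± 0.10, the poly(A) binding protein gene Pabpc1 at 0.67 ± 0.14 and Vim, which encodes vimentin, at 1.25 ± 0.22. Of 40 initiation factors 10 fell and 0 rose (median -0.11, between -0.24 and 0.02 under the others, and 3 fell and 2 rose under quantile normalization), among them Eif1 (-0.84 ± 0.12), Eif4a2 (-0.65 ± 0.11), Eif3f (-0.44 ± 0.10) and Eif3m (-0.35 ± 0.10). Of 111 ribosome assembly and nucleolar genes 1 rose and 7 fell (median 0.01, between -0.01 and 0.14, and 2 rose and 4 fell under quantile normalization), with Wdr18 at -0.65 ± 0.13, Nop53 at -0.55 ± 0.10 and Snu13 at -0.44 ± 0.11, while Riok3 gave 0.05 ± 0.09 and did not pass.

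Of 21 genes for RNA polymerase I and rRNA transcription 3 fell, Ubtf (-0.69 ± 0.13), the factor that opens rDNA, and the shared polymerase subunits Polr2f (-0.58 ± 0.12) and Polr2k (-0.36 ± 0.10), while Polr1d (-0.44 ± 0.15) did not pass (list median -0.19, and 1 call, lower, under quantile normalization). Of 38 regulators of ribosomal protein synthesis 3 rose and 6 fell (median -0.02, between -0.01 and 0.12). Myc, an activator of ribosome genes, rose by 1.91 ± 0.36, and Max (-1.17 ± 0.16), its partner, Akt2 (-0.78 ± 0.09) and Maf1 (-0.63 ± 0.11), a repressor of RNA polymerase III, fell. Calls made up 14.3% of the polymerase I list and 23.7% of the regulators, beside 21.5% of all genes. None of these lists had a call for TAC in transgenic hearts, where 0% of all genes passed.

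Mitochondrial ribosomal protein genes, the closest relatives in function, had 46 of 78 lower and 0 higher after TAC in wild-type hearts, with a median of -0.48. The share called was 59.0%, beside 21.5% of all genes. Under quantile normalization 16 were lower and 0 higher, with a median of -0.32. Mrpl28 (-0.82 ± 0.15), Mrpl39 (-0.80 ± 0.11), Mrps28 (-0.73 ± 0.13) and Mrps10 (-0.61 ± 0.11) had the smallest p. In the interaction 14 of 78 were higher and 0 lower (17.9%, beside 7.29% of all genes), where the cytosolic members had 0 calls. The median was 0.53 (0.35 under quantile normalization, with 0 calls).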

How the data were processed

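Left ventricle RNA was read on 12 single-colour arrays. The deposited array files hold spot intensity, per the file headers a background-subtracted processed signal from Feature Extraction 10.7.3.1, not scaled between arrays. The deposited table holds log2 values, which match 75th percentile scaling centred on each probe's median (array medians within 0.00103). RMA is listed in the submitters' processing notes, with no role given.

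From the processed signals, outlier spots were left out, replicate spots averaged, and each array's 75th percentile subtracted on the log2 scale. A probe was kept if 3 or more of the 12 arrays read it well above background. Names came from matching transcript accessions to the RefSeq gene table of GRCm38.p6 (26424 of 39429 probes named; the array annotation is mm9), and the brightest probe was taken per gene. No arrays held identical values. The test was limma 3.58.1 (R 4.3.3) on group means over all 12 arrays, with 5 comparisons, 8 residual and 1.78 prior degrees of freedom, two-sided tests. The script was tested on simulated data. Probe-to-probe ratios used exact permutation tests.

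Members, lists and the naming rule were chosen with earlier results of these data known. Named were paralogs and their parents, members with textbook roles, in each comparison up to 5 called members in each direction with the largest differences (or the 3 with the smallest p), the 3 largest and smallest spreads, members with dim probes, and up to 4 genes of each other list, besides further called members. Some genes that the rule names are not reported here. Alternatives covered scaling, background correction, filters, probe choice, slide, replicate number, array weights, the deposited values, and each array left out; a percentile over probes was added after seeing the data. Marker lists of the other cell types were called as follows after TAC in wild type (higher, then lower): 5 and 1 of 12 endothelial, 5 and 1 of 10 smooth muscle and pericyte, 3 and 0 of 12 macrophage and monocyte, 0 and 1 of 11 lymphocyte, 1 and 0 of 6 atrial, 0 of 6 red blood cell and 4 and 0 of 10 cell cycle genes. Over all genes 8.86% were higher and 12.6% lower.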

Additional observations from a re-analysis of the deposited data

How the results depend on the processing

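After TAC in wild-type hearts, the main 16 calls became 4 under quantile normalization, 3 under median scaling, 5 with the percentile over probes well above background on all 12 arrays, 2 with normexp, 7 with no filter on dim probes, 31 with a filter on all 12 arrays, 0 with slide as a fixed block and 46 with array weights; without single arrays they ran from 2 (without wild-type sham 1, or wild-type TAC 3) to 25 (without transgenic sham 3). The median of -0.27 became 0.078, -0.13 and -0.43 under quantile normalization, the all-array percentile and normexp. In sham hearts the single call was 0 under median scaling, normexp, no filter, slide as a fixed or random block, array weights and the groups compared alone, 2 with the filter on all 12 arrays, and 0 to 2 without single arrays; the median moved to 0.088 under quantile normalization.

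The transgenic TAC median was 0.18 with slide as a fixed block and 0.17 within the shared slide. For the transgene after TAC the median was -0.027 (quantile), 0.23 (normexp), 0.26 (slide fixed) and 0.26 within the slide, with 2 calls under the filter on all 12 arrays and 4 under array weights. The interaction had 1 call under quantile normalization, 1 with the all-array percentile, 1 with the mean over probes, 1 with slide as a random block, 7 with the filter on all 12 arrays and 7 with array weights, and 0 to 4 without single arrays; its median was -0.12 (quantile), 0.073 (all-array percentile) and 0.47 (slide fixed). The cause of these changes was not tested, except that the filters change the number of genes tested and slide as a fixed block removes degrees of freedom.

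Differences that changed sign were, under quantile normalization after TAC in wild-type hearts, Rpl37a (0.095), Rplp0 (0.14), Rplp2 (0.033), Rps10 (0.044), Rps14 (0.12) and Rps29 (0.0016). With slide as a fixed block they were Rplp0 (0.16) for TAC in transgenic hearts, Rpl22 (0.090) for the transgene after TAC and Rps12 (0.14) for the interaction. For the transgene after TAC, Rpl3 gave -0.12 (quantile), -0.048 (all-array percentile), -0.016 (deposited values), -0.038 (array weights) and -0.020 (percentile over probes), Rpl3l -0.020 (array weights), and Rpl22 0.056 (normexp) and 0.026 (mean over probes). Without single arrays, that comparison ran from -0.12 to 0.19 for Rpl3, -0.20 to 0.51 for Rpl3l, -0.47 to 0.0053 for Rpl39l and -0.27 to 0.62 for the difference of Rpl3l and Rpl3.

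With the replicate number as a block, 8 members passed after TAC in wild-type hearts, all among the main 16, and 0 in sham hearts. Of 18 pairs of same-numbered arrays, 4 deviated together with r over 0.1 (r from -0.39 to 0.22). Among pairs with different numbers r ran from -0.35 to 0.27. Deviations from a group's mean sum to 0, which ties these r to each other. They therefore cannot show whether equal numbers mark a pairing or a batch, and this was left undecided. Of single-gene values, 790 kept direction and side of the threshold, 180 lost the call, 23 gained it and 24 changed sign.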
